A study of Mus musculus with 15 samples.

Results

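The 10 genes described here mark the hepatocytes around the central vein or belong to the targets of Wnt signalling, and were taken by name from the RNA-seq count table: Glul, Rhbg, Slc1a2, Cyp2e1, Cyp1a2, Axin2, Nkd1, Rnf43, Lgr5 and Tbx3. They are 10 of the 21702 genes in the table, and all 10 were among the 12172 genes with enough reads to be tested. RNA came from whole liver pieces of 15 wild-type (WT) female C57BL/6 mice (C57BL/6N in the methods of the study), 3 in each of 5 groups. Every mouse had received an adeno-associated virus of serotype 8 by the tail vein before mating, either the empty vector (AAV8-null) or a vector carrying mouse p21 cDNA (AAV8-p21) under the TBG promoter, which is active in hepatocytes. The AAV8-null mice were not pregnant (NP), at 8 days post coitum (8 dpc) or at 16 dpc, and the AAV8-p21 mice were at 8 dpc or 16 dpc. No NP mice with AAV8-p21 and no uninjected mice were analysed here, so each comparison is between injected animals.

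The liver lobule is zoned along the blood flow, from the portal tract to the central vein. Endothelial cells of the central vein secrete Wnt ligands and R-spondin, which stabilise β-catenin in the neighbouring hepatocytes, and β-catenin then acts with TCF/LEF factors on genes of the pericentral program. That program holds enzymes of glutamine synthesis and drug metabolism, and also negative regulators that feed back on the pathway itself. Pregnancy enlarges the maternal liver, and p21, encoded by Cdkn1a, is an inhibitor of cyclin-dependent kinases. The comparisons therefore ask how these genes stood in pregnancy and whether they differed when p21 was raised in hepatocytes.

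The upstream sequences of the 3 genes that passed the test in any comparison are shown, because β-catenin acts through TCF/LEF factors, which bind DNA at a short motif. They come from the RefSeq promoter table on GRCm38.p6 and are written on the strand of the gene, up to the first annotated exon base, with any match to the motif CTTTG followed by AA, AT, TA or TT, searched on both strands, in capitals. The Cyp2e1 stretch lies at chr7:140763569-140763738 on the plus strand, that of Slc1a2 at chr2:102706188-102706355 on the plus strand and that of Axin2 at chr11:108920099-108920348 on the plus strand. The Slc1a2 start site of this table lies inside the span of the gene in GENCODE M21.
Cyp2e1: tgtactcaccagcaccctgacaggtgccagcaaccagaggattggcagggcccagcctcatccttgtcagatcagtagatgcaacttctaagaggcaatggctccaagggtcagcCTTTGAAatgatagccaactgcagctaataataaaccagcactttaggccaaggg
Slc1a2: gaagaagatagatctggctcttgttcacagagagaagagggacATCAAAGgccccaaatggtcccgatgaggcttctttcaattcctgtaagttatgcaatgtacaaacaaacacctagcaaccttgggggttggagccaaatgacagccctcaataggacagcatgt
Axin2: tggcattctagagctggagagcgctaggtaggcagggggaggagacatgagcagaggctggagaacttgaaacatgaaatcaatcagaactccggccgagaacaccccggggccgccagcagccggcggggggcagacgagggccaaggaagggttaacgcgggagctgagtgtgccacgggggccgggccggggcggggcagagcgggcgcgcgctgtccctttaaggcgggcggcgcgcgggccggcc
The match in Cyp2e1 began 135 bases before the RefSeq start site and the match in Slc1a2, read on the opposite strand, 207 bases before it, whereas the Axin2 stretch held none. The printed Cyp2e1 and Slc1a2 stretches end before that start site. Of the 250 upstream bases, 80 in Cyp2e1 and 29 in Slc1a2 lie in annotated exons. RefSeq promoters were found for 7 of the 10 genes, 8 promoters in all, and 3 of these 8 held a match within 250 bases upstream (37.5%), the third being Cyp1a2 at 244 bases. Among all 32851 promoters of the table, 14.8% held one. A match is a string of letters and was not tested as a binding site.

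Each library held between 12280709 and 17615185 counted reads. Cdkn1a was between 347 and 1660 CPM, read counts scaled to the size of the library, in the 6 AAV8-p21 livers and between 3.29 and 127 CPM in the 9 AAV8-null livers, so the groups did not overlap and the libraries matched their virus labels. Albumin (Alb), the main secreted protein of hepatocytes, took 7.90% to 12.9% of the reads in NP and 8 dpc livers and 20.5% to 27.8% at 16 dpc. CPM here are scaled by TMM (trimmed mean of M-values), which sets the bulk of genes to an equal level, so all changes below are relative to the typical gene. When the libraries were scaled by total reads alone, a choice made after seeing the data, the median log2 fold change of all tested genes at 16 dpc against NP moved from -0.03 to -0.70, and calls of the 10 genes that depended on this are given with both values. With this scaling 50.5% of all tested genes passed at 16 dpc against NP. From 8 to 16 dpc its medians were -0.70 in AAV8-null livers, -0.59 in AAV8-p21 livers and -0.65 over both viruses. There 53.5%, 35.5% and 69.1% of all genes passed, so a pass with this scaling was common.

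Per kilobase of exon, Cyp2e1 was the most abundant of the 10 in every group, with 3790 ± 590 CPM per kb in NP livers (mean ± SD, n = 3), followed by Glul with 283 ± 41.2 and Cyp1a2 with 171 ± 61.9 CPM per kb. Slc1a2 followed with 19.5 ± 6.25, then Rhbg with 5.59 ± 1.82, Tbx3 with 2.75 ± 0.772 and Rnf43 with 2.46 ± 1.20 CPM per kb. Nkd1 with 1.11 ± 0.286, Axin2 with 0.975 ± 0.451 and Lgr5 with 0.609 ± 0.240 CPM per kb were at the bottom. This order was the same in all 5 groups except that Axin2 and Nkd1 exchanged places. In NP livers the means of Tbx3 and Rnf43, and those of Nkd1 and Axin2, lay within their SDs of each other. Lgr5 rested on 5 to 149 reads per library, and its lowest count of 5 has an exact 95% Poisson interval of 1.62 to 11.7, which covers counting error only.

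**Figure D1:**
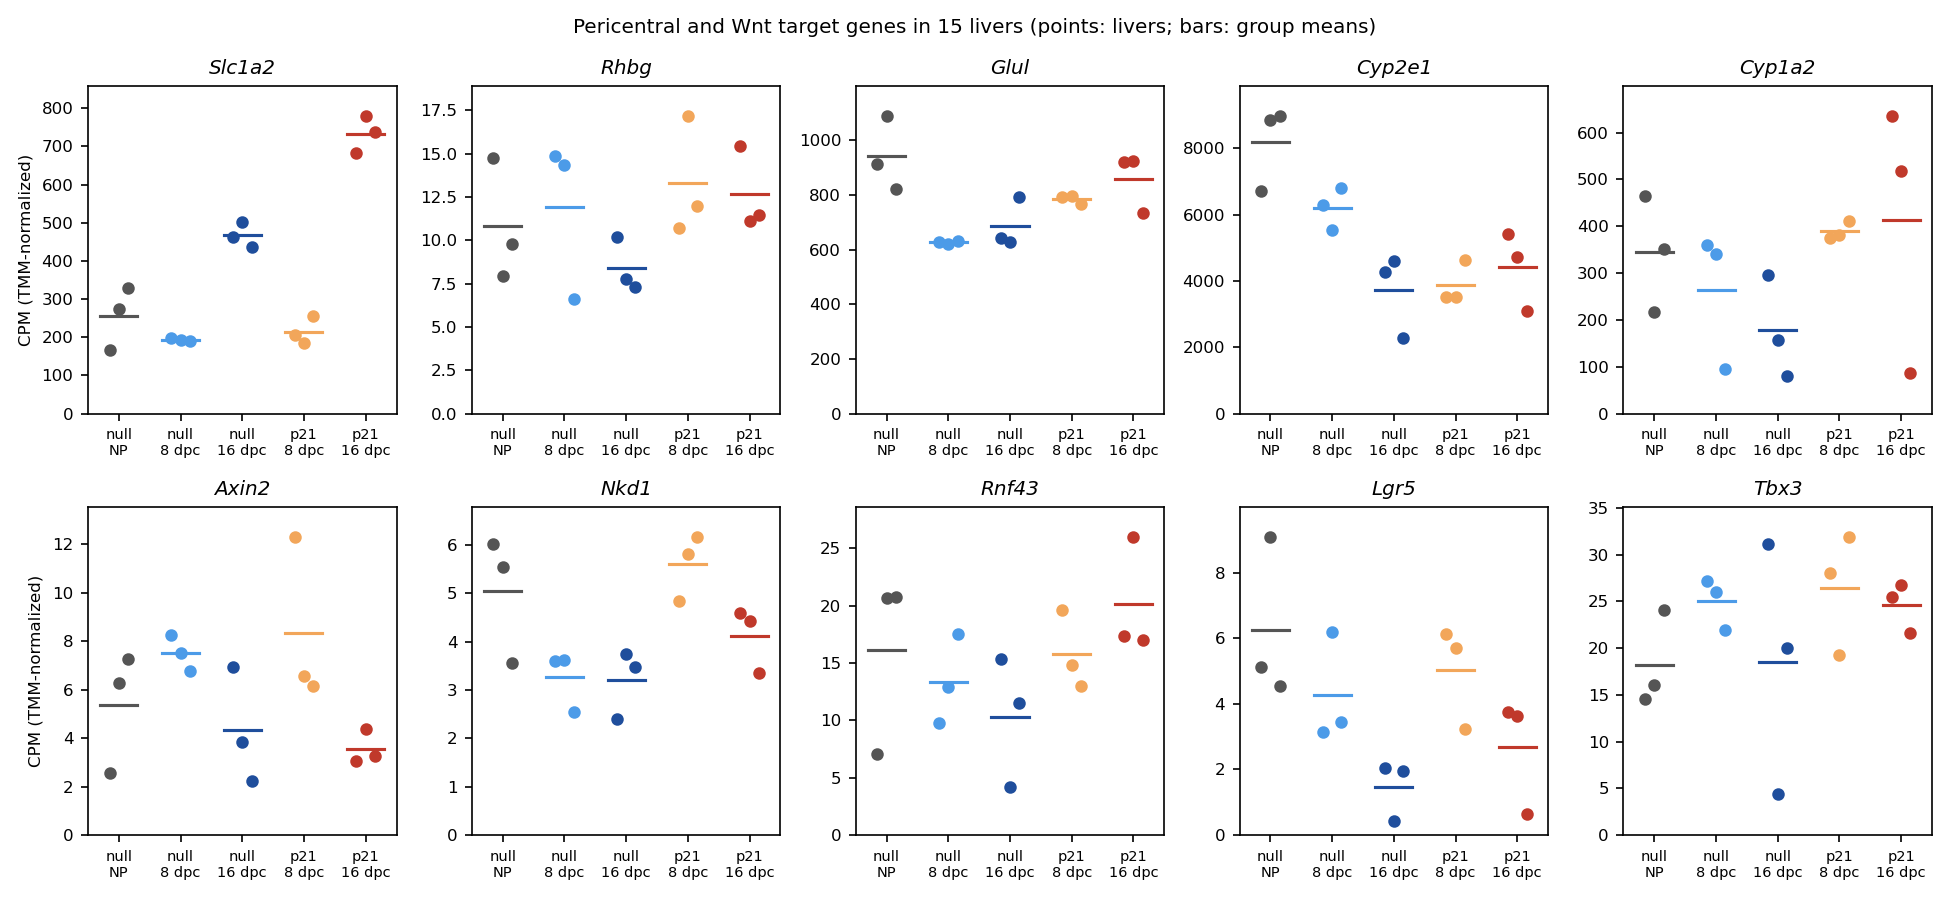
Expression of the 10 genes in each liver. The vertical axis of each panel is CPM (TMM-normalized) from 0, each point is 1 liver, bars are means of 3 livers and colors mark the 5 groups; Slc1a2 is at 435 CPM or above in all 6 livers at 16 dpc and at 328 CPM or below in the other 9.

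Among the genes of glutamate and ammonia handling, Slc1a2 rose between 8 and 16 dpc with either virus, and it was the most firmly called of the 10. Slc1a2 encodes the glutamate transporter GLT-1, found in pericentral hepatocytes as well as in astrocytes. It lies on GRCm38 at chr2:102658659-102790784, plus strand. NP livers had 167, 274 and 328 CPM of Slc1a2. At 8 dpc the AAV8-null livers had 198, 193 and 189 CPM and the AAV8-p21 livers 205, 184 and 255 CPM. At 16 dpc the AAV8-null livers had 464, 501 and 435 CPM and the AAV8-p21 livers 682, 780.5 and 739 CPM. Every 16 dpc liver was thus above every 8 dpc and NP liver, and the AAV8-p21 livers at 16 dpc were above all others. Between 8 and 16 dpc the log2 fold change of Slc1a2 was 1.27 (SE 0.223, adjusted p = 0.00439 by the edgeR quasi-likelihood test) in AAV8-null and 1.77 (SE 0.226, adjusted p = 0.000505) in AAV8-p21 mice, and 1.52 (SE 0.159, adjusted p = 2.53e-05) over both viruses. These 3 calls held when any single library was left out. With total-read scaling the 3 values were 0.56 (adjusted p = 0.0436), 1.22 (adjusted p = 0.00291) and 0.89 (adjusted p = 0.000333).

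Against NP, Slc1a2 in AAV8-null livers at 16 dpc was higher by 0.87 on the log2 scale (SE 0.221, 95% interval 0.39 to 1.34, adjusted p = 0.0308). This call was less firm than the change from 8 dpc: it was lost in 5 of the 6 fits that left out a library, with adjusted p of 0.0583 to 0.0974, and with edgeR on the compared groups alone (adjusted p = 0.141). With total-read scaling the value fell to 0.18 (adjusted p = 0.49). Without NP replicate 1, the NP liver with the least Slc1a2, the value was 0.63 (adjusted p = 0.0680).

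Glul, which encodes glutamine synthetase, was the steadiest of the 10, with a highest level 1.75 times its lowest over the 15 livers. The gene lies at chr1:153899944-153909723, plus strand. NP livers had 913, 1090 and 821 CPM of Glul. AAV8-null livers had 626, 622 and 631 CPM at 8 dpc and 641, 626 and 791 CPM at 16 dpc, so that all 6 pregnant AAV8-null livers were below all 3 NP livers. AAV8-p21 livers had 792, 797 and 767 CPM at 8 dpc and 922, 925 and 734.5 CPM at 16 dpc. The AAV8-p21 livers at 8 dpc were also all below the NP livers, while those at 16 dpc overlapped with them. The log2 fold change of Glul against NP was -0.59 at 8 dpc (SE 0.177, unadjusted p = 0.00484, adjusted p = 0.394) and -0.46 at 16 dpc (SE 0.177, adjusted p = 0.152), and neither passed the test. At 8 dpc Glul passed with DESeq2 over the 15 libraries (adjusted p = 0.0413) and with limma voom (adjusted p = 0.00733), and at 16 dpc with DESeq2 over the 15 libraries (adjusted p = 0.0478) and with total-read scaling, where the value was -1.13 (adjusted p = 0.0011). Between 8 and 16 dpc the direction of Glul depended on the scaling. It was 0.13 in AAV8-null livers (adjusted p = 0.718 by edgeR) and 0.13 over both viruses (adjusted p = 0.513) with TMM, and with total-read scaling it was -0.56 (adjusted p = 0.0288) and -0.50 (adjusted p = 0.00609), both of which passed. The medians of all genes with that scaling were lower still, at -0.70 and -0.65.

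Rhbg, which encodes an ammonia transporter, was between 6.61 and 17.2 CPM over all livers and passed no edgeR test with TMM scaling. NP livers had 14.75, 7.92 and 9.79 CPM of Rhbg, and AAV8-null livers had 14.8, 14.35 and 6.61 CPM at 8 dpc and 10.2, 7.75 and 7.30 CPM at 16 dpc. The AAV8-p21 livers had 10.7, 17.2 and 11.98 CPM at 8 dpc and 15.4, 11.1 and 11.4 CPM at 16 dpc. At 16 dpc all 3 AAV8-p21 values of Rhbg were above the 3 AAV8-null values, while at 8 dpc the groups overlapped. At 16 dpc against NP in AAV8-null livers the log2 fold change of Rhbg was -0.36 (adjusted p = 0.558 by edgeR), and with total-read scaling it was -1.04 and passed (adjusted p = 0.0147). With that scaling Rhbg also passed from 8 to 16 dpc, at -1.21 in AAV8-null livers (adjusted p = 0.00631) and -0.93 over both viruses (adjusted p = 0.00205). Rhbg lies at chr3:88242874-88254709, minus strand, and in GENCODE M21 it shares 1190 exon bases with the same-strand gene Gm38392, which has no row in the table, so reads that fall in both genes could have been left uncounted. How the counting treated such reads is not given in the sources used here.

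Of the cytochromes P450, Cyp2e1 fell at 16 dpc against NP in AAV8-null livers. Cyp2e1 oxidises ethanol and other small molecules, and the gene lies at chr7:140763739-140774987, plus strand. Its levels were 6710, 8841 and 8983 CPM in NP livers. AAV8-null livers had 6290, 5528 and 6813 CPM at 8 dpc and 4257, 4603 and 2292 CPM at 16 dpc. AAV8-p21 livers had 3526, 3527 and 4619 CPM already at 8 dpc and 5425, 4718 and 3079 CPM at 16 dpc. The AAV8-null groups at 16 dpc and NP did not overlap, and neither did the AAV8-p21 and AAV8-null groups at 8 dpc, where the AAV8-p21 livers were lower. Cyp2e1 fell at 16 dpc against NP in AAV8-null livers with a log2 fold change of -1.14 (SE 0.286, 95% interval -1.75 to -0.53, adjusted p = 0.0288). This call was lost without NP replicate 2, NP replicate 3 or AAV8-null 16 dpc replicate 3, with values of -1.08, -1.07 and -0.88 and adjusted p of 0.0926, 0.0942 and 0.0910, and also with edgeR on the compared groups alone (adjusted p = 0.0957). With total-read scaling the value was -1.85 (adjusted p = 0.000251). From 8 to 16 dpc in AAV8-null livers the value was -0.74 (SE 0.284, adjusted p = 0.133), which passed with limma voom (adjusted p = 0.0269) and with total-read scaling (-1.48, adjusted p = 0.000745). Over both viruses it was -0.28 (adjusted p = 0.367), and -0.94 with total-read scaling (adjusted p = 0.000467).

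Cyp1a2, which metabolises caffeine and aromatic amines, varied most within groups, with a pooled SD of 0.983 on the log2 scale against 0.151 for Glul, and passed no edgeR test with TMM scaling. It lies at chr9:57676937-57683703, minus strand. NP livers had 466, 216.5 and 351 CPM of Cyp1a2. AAV8-null livers had 360, 340 and 94.8 CPM at 8 dpc and 296, 157 and 80.6 CPM at 16 dpc. AAV8-p21 livers had 375, 381 and 411 CPM at 8 dpc and 636, 519 and 87.45 CPM at 16 dpc. In 3 of the 5 groups 1 liver was at or below 94.8 CPM while another was at 296 CPM or above, so the group means describe the single livers poorly. At 16 dpc against NP in AAV8-null livers the log2 fold change of Cyp1a2 was -0.95 (adjusted p = 0.414 by edgeR), and with total-read scaling it was -1.65 and passed (adjusted p = 0.035).

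The genes that feed back on Wnt signalling were expressed at a low level, and Axin2 was the one that passed a test. Axin2 encodes a scaffold of the complex that degrades β-catenin and is a general Wnt target; it lies at chr11:108920349-108950783, plus strand. NP livers had 2.56, 6.275 and 7.27 CPM of Axin2. At 8 dpc the AAV8-null livers had 8.265, 7.50 and 6.76 CPM and the AAV8-p21 livers 12.3, 6.56 and 6.16 CPM. At 16 dpc the AAV8-null livers had 6.95, 3.83 and 2.225 CPM and the AAV8-p21 livers 3.07, 4.36 and 3.28 CPM. The stages overlapped in AAV8-null livers, through 1 liver at 16 dpc, and did not overlap in AAV8-p21 livers. Over both viruses Axin2 fell from 8 to 16 dpc with a log2 fold change of -1.01 (SE 0.296, 95% interval -1.64 to -0.38, adjusted p = 0.0324). Within AAV8-null mice alone the value was -0.79 (SE 0.417, adjusted p = 0.28), which passed with total-read scaling (-1.52, adjusted p = 0.01). Within AAV8-p21 mice alone the value was -1.23 (SE 0.42, adjusted p = 0.142), and it passed with limma voom (adjusted p = 0.0338) and DESeq2 on the compared groups (adjusted p = 0.0196). With total-read scaling the values over both viruses and within AAV8-p21 mice were -1.67 (adjusted p = 0.000408) and -1.81 (adjusted p = 0.00892). The call over both viruses was lost in 7 of the 12 fits that left out a library, where adjusted p reached 0.0923. These 7 libraries were AAV8-null 8 dpc replicates 1 and 2, AAV8-null 16 dpc replicates 2 and 3, AAV8-p21 8 dpc replicate 1, and columns 1 and 3 of the AAV8-p21 group at 16 dpc.

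Nkd1, which encodes a Dishevelled-binding inhibitor, was at chr8:88521354-88594884, plus strand, and had 27 to 102 reads per library. NP livers had 6.03, 5.54 and 3.57 CPM of Nkd1. AAV8-null livers had 3.61, 3.63 and 2.55 CPM at 8 dpc and 2.41, 3.75 and 3.47 CPM at 16 dpc. AAV8-p21 livers had 4.84, 5.82 and 6.16 CPM at 8 dpc and 4.6, 4.43 and 3.35 CPM at 16 dpc. The AAV8-p21 livers at 8 dpc were all above the AAV8-null livers of that stage. In AAV8-null livers the log2 fold change of Nkd1 against NP was -0.63 at 8 dpc (SE 0.261, adjusted p = 0.616) and -0.65 at 16 dpc (SE 0.267, adjusted p = 0.175), neither of which passed the test. With total-read scaling the value at 16 dpc was -1.33 and passed (adjusted p = 0.0022). From 8 to 16 dpc Nkd1 differed by -0.02 in AAV8-null livers, -0.44 in AAV8-p21 livers and -0.23 over both viruses, with adjusted p of 0.978, 0.432 and 0.434. With total-read scaling these values were -0.73 (adjusted p = 0.0362), -1.01 (adjusted p = 0.0125) and -0.87 (adjusted p = 0.00133), and all 3 passed. The medians of all genes with that scaling were -0.70, -0.59 and -0.65, and 53.5%, 35.5% and 69.1% of all genes passed.

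Rnf43 encodes a membrane ubiquitin ligase that removes Frizzled receptors, and lies at chr11:87662722-87735539, plus strand. NP livers had 7.06, 20.65 and 20.8 CPM of Rnf43. AAV8-null livers had 9.72, 12.9 and 17.5 CPM at 8 dpc and 15.3, 4.17 and 11.48 CPM at 16 dpc. AAV8-p21 livers had 19.6, 14.8 and 13.03 CPM at 8 dpc and 17.4, 25.95 and 17.0 CPM at 16 dpc. The 3 AAV8-p21 livers at 16 dpc were above the 3 AAV8-null livers. Rnf43 passed no edgeR test with TMM scaling. Against NP, the Rnf43 log2 fold change at 16 dpc with AAV8-null was -0.65 (adjusted p = 0.428), and with total-read scaling it was -1.32 and passed (adjusted p = 0.0307).

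Lgr5, a receptor for R-spondins, had the widest range of the 10, from 0.417 to 9.08 CPM, and was lowest in AAV8-null livers at 16 dpc. The gene lies at chr10:115450311-115587780, minus strand. NP livers had 5.125, 9.08 and 4.545 CPM of Lgr5. At 8 dpc the AAV8-null livers had 3.14, 6.19 and 3.43 CPM and the AAV8-p21 livers 6.12, 5.71 and 3.22 CPM. At 16 dpc the AAV8-null livers had 2.05, 0.417 and 1.96 CPM and the AAV8-p21 livers 3.75, 3.63 and 0.655 CPM. All AAV8-null values at 16 dpc were below all NP and 8 dpc values. The log2 fold change of Lgr5 in AAV8-null livers was -2.09 against NP (SE 0.60, adjusted p = 0.0522) and -1.53 against 8 dpc (SE 0.60, adjusted p = 0.141), and from 8 to 16 dpc over both viruses it was -1.22 (SE 0.411, adjusted p = 0.0558). None passed the edgeR test. Against NP it passed when genes with few reads were kept (adjusted p = 0.0442), with DESeq2 over the 15 libraries (adjusted p = 0.00762) or on the compared groups alone (adjusted p = 0.00432), with limma voom (adjusted p = 0.042), with edgeR on the 12 numbered libraries (adjusted p = 0.0292) and with total-read scaling (-2.76, adjusted p = 0.0039). Over both viruses the change from 8 dpc passed with DESeq2 over the 15 libraries (adjusted p = 0.0211) or on the compared groups alone (adjusted p = 0.026), with limma voom (adjusted p = 0.0475) and with total-read scaling (-1.87, adjusted p = 0.00181). In AAV8-null livers alone it passed with total-read scaling (-2.21, adjusted p = 0.0103). No fit that left out a library called Lgr5 in any of these comparisons. Between 8 and 16 dpc in AAV8-p21 livers the value was -0.92 (SE 0.562, adjusted p = 0.455).

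Tbx3, a T-box transcription factor of the pericentral zone, lies at chr5:119670669-119684724, plus strand, and passed no edgeR test with TMM scaling. NP livers had 14.5, 16.02 and 24.05 CPM of Tbx3. AAV8-null livers had 27.2, 26.0 and 21.95 CPM at 8 dpc and 31.2, 4.42 and 20.0 CPM at 16 dpc. AAV8-p21 livers had 28.1, 19.3 and 31.9 CPM at 8 dpc and 25.5, 26.75 and 21.6 CPM at 16 dpc. From 8 to 16 dpc over both viruses the log2 fold change of Tbx3 was -0.27 (adjusted p = 0.608 by edgeR), and with total-read scaling it was -0.89 and passed (adjusted p = 0.0231). The value of 4.42 CPM belongs to AAV8-null 16 dpc replicate 2, which was also the lowest of all 15 livers for Lgr5 and Rnf43, and had the highest Cdkn1a (127 CPM) of the AAV8-null livers. The same liver was the highest of its group for Slc1a2 (501 CPM), Cyp2e1 (4603 CPM) and Nkd1 (3.75 CPM). A link of these values to Cdkn1a was not tested. Without this liver the change of Tbx3 over both viruses was -0.03, that of Rnf43 at 16 dpc against NP -0.27 in place of -0.65, and that of Lgr5 against NP -1.64 in place of -2.09, and none of these passed (adjusted p = 0.934, 0.803 and 0.168 by edgeR).

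**Figure D2:**
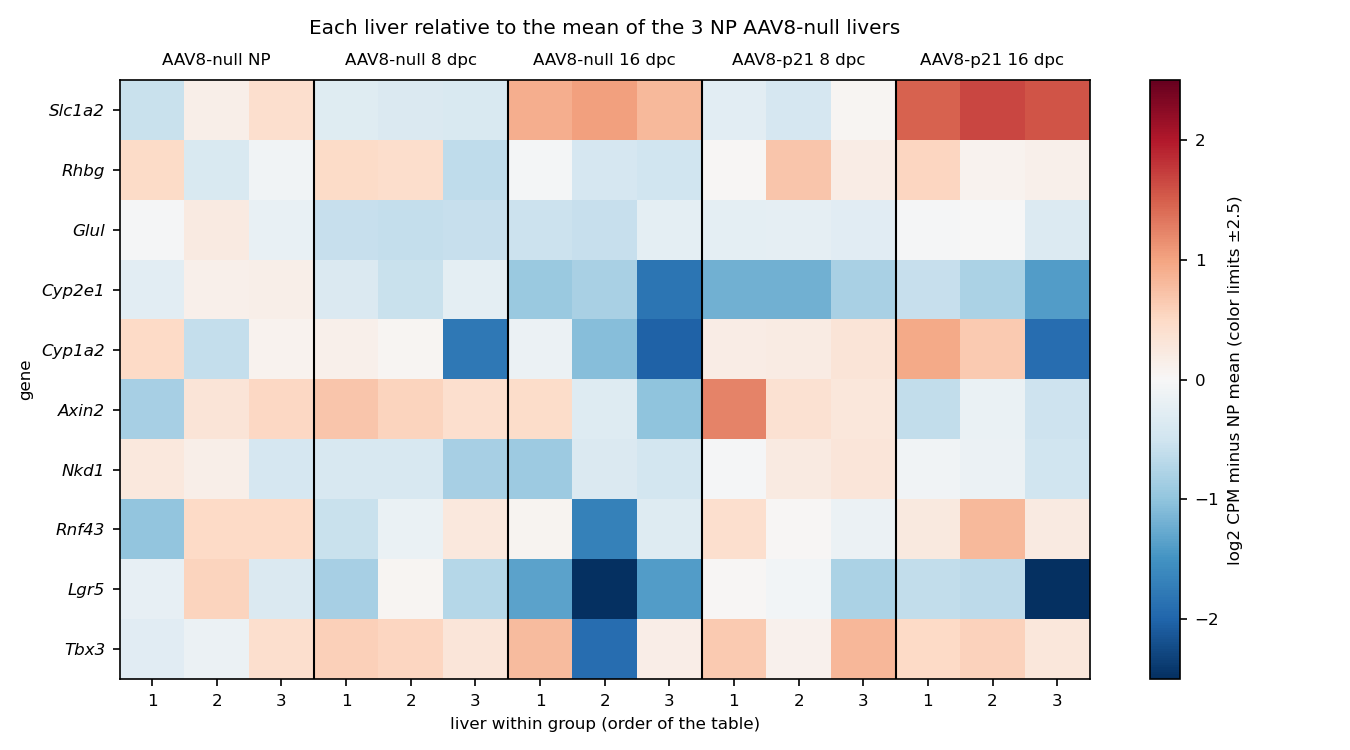
Each liver relative to the NP mean. Rows are the 10 genes, columns the 15 livers by group in the order of the table, and color is log2 CPM minus the mean of the 3 NP livers, cut at ±2.5; the Slc1a2 row is red in all 6 livers at 16 dpc, and the Cyp2e1 row is blue in all 12 livers of pregnant mice.

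Taking the 10 genes by comparison, 2 passed the edgeR test at 16 dpc against NP in AAV8-null livers, Slc1a2 higher and Cyp2e1 lower, where 6.52% of all tested genes passed. Their estimates were lower for 8 of the 10 and the median log2 fold change was -0.55, beside -0.03 over all genes, of which 52.5% had a lower estimate. The groups did not overlap for 1 gene that was higher (Slc1a2) and 3 that were lower (Glul, Cyp2e1 and Lgr5), and for 24.6% of all tested genes. With total-read scaling 7 of the 10 passed, all of them lower (Glul, Rhbg, Cyp2e1, Cyp1a2, Nkd1, Rnf43 and Lgr5), with a median of -1.22 beside -0.70 for all genes, of which 50.5% passed. In bulk liver, fewer pericentral hepatocytes and less RNA of these genes per cell cannot be told apart.

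At 8 dpc against NP in AAV8-null livers, 0 of the 10 passed the edgeR test, as did 0 of all 12172 genes (0% of those tested), and 2 (Glul and Nkd1) had an unadjusted p under 0.05, against 6.60% of all genes. Limma voom called 2, Glul and Slc1a2 (adjusted p = 0.0179), where it called 15.2% of all genes. DESeq2 over the 15 libraries called 1 (Glul), where it called 0.454%, and DESeq2 on the compared groups alone called 0, where it called 0.505%. AAV8-null 8 dpc replicate 3 was the lowest of its group for 6 of the 10 genes, and without it 92 of all genes passed the edgeR test against NP (0.744%), with 0 of the 10 among them. The 8 endothelial markers had lower estimates in every case at 8 dpc (median -0.81 on the log2 scale, 0 called), and their summed level was 117 to 160 CPM against 160 to 286 CPM in NP livers. The 6 stellate cell markers were also lower in every estimate (median -0.62, 0 called), and their summed level did not overlap, at 100.5 to 163 CPM against 195 to 212 CPM. The part of endothelial and stellate cell RNA in the values of the 10 genes was not tested.

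From 8 to 16 dpc, 1 of the 10 passed in AAV8-null livers (Slc1a2, where 6.87% of all genes passed), 1 in AAV8-p21 livers (Slc1a2, where 3.32% passed) and 2 over both viruses (Slc1a2 higher and Axin2 lower, where 16.3% passed). Slc1a2 was the 1 gene of the 10 whose stages did not overlap over all 12 pregnant livers, as for 6.22% of all genes. With total-read scaling 1 of the 10 passed higher over both viruses (Slc1a2) and 7 lower, beside a median log2 fold change of -0.65 for all genes, of which 69.1% passed. Between the stages over both viruses 4 of the 6 hepatocyte markers were called higher, and their summed level, mostly albumin, was 71360 to 127600 CPM at 8 dpc and 266100 to 433800 CPM at 16 dpc. Also called higher were 4 of 8 endothelial, 2 of 6 stellate cell (Dcn and Colec11) and 1 of 3 erythroid markers, and 0 of the Kupffer cell and cholangiocyte markers, with 0 called lower in any of these lists. With total-read scaling the counts higher and lower were 4 and 1 for hepatocyte, 0 and 1 for endothelial, 0 and 1 for stellate cell, 1 and 1 for erythroid, 0 and 6 for Kupffer cell and 0 and 2 for cholangiocyte markers. Their part in the change of Slc1a2 and Axin2 was not tested.

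**Figure D3:**
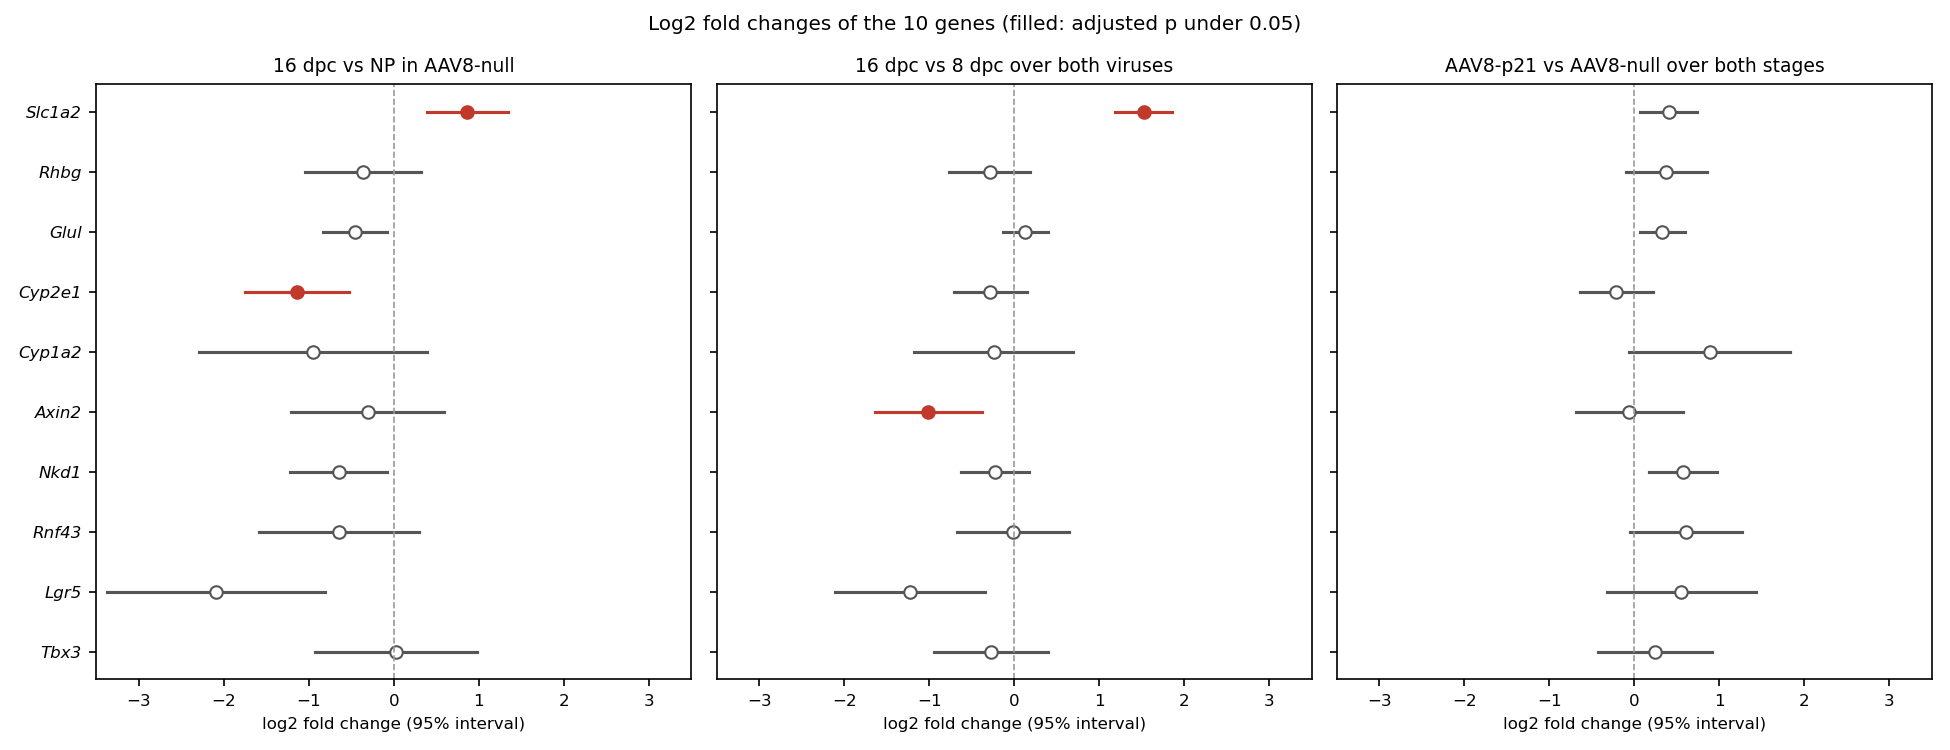
Log2 fold changes of the 10 genes in 3 comparisons. Points are edgeR estimates with 95% intervals, filled and red where adjusted p was under 0.05, and the dashed line is no change; Slc1a2 and Cyp2e1 are filled in the left panel, Slc1a2 and Axin2 in the middle panel and none in the right panel.

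Between the viruses no gene of the 10 passed the edgeR test, although most estimates were higher with AAV8-p21. At 16 dpc 0 of 10 passed, where 0.0739% of all genes did, and 2 (Slc1a2 and Rnf43) had an unadjusted p under 0.05, against 9.77% of all genes. Slc1a2 was higher by 0.65 on the log2 scale (SE 0.22, unadjusted p = 0.01, adjusted p = 0.33) and Rnf43 by 0.96 (SE 0.441, unadjusted p = 0.0453, adjusted p = 0.506). For Glul the difference was 0.33 (95% interval -0.05 to 0.70) and for Cyp1a2 1.22 (95% interval -0.13 to 2.57), which ranged from 0.77 without AAV8-p21 column 1 to 1.8 without AAV8-null replicate 1. Column 3 of the AAV8-p21 group was the lowest of its group for 7 of the 10 genes. Without it 0 of the 10 passed, while the genes that passed among all those tested went from 9 to 35. That number fell to 3 without AAV8-p21 column 1, AAV8-p21 column 2 or AAV8-null 16 dpc replicate 2. The groups did not overlap for Slc1a2, Rnf43 and Rhbg, all higher with AAV8-p21, beside 13.7% of all genes.

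At 8 dpc 0 of 10 passed, where 0.0246% of all genes did (3 genes, and 38 or 0.307% without AAV8-null 8 dpc replicate 3, with 0 of the 10 among them), and 2 (Nkd1 and Cyp2e1) had an unadjusted p under 0.05, against 5.18% of all genes. Nkd1 was higher with AAV8-p21 by 0.78 (SE 0.26, unadjusted p = 0.00923, adjusted p = 0.654) and Cyp2e1 differed by -0.67 (SE 0.284, unadjusted p = 0.0316, adjusted p = 0.898). Glul differed by 0.33 (95% interval -0.05 to 0.70), as at 16 dpc. Groups did not overlap for Glul, Cyp1a2 and Nkd1, 3 of 10 that were higher with AAV8-p21, beside 5.52% of all genes, and for Cyp2e1, 1 of 10 that was lower, beside 4.49%. DESeq2 and limma voom called 0 of the 10 at either stage. At 16 dpc DESeq2 over the 15 libraries called 0.840% of all genes, DESeq2 on the compared groups alone 0.882% and limma voom 0.961%, and at 8 dpc they called 0.180%, 0.542% and 0.863%.

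Over both stages 0 of the 10 passed, where 0.131% of all genes did, and 3 (Nkd1, Glul and Slc1a2) had an unadjusted p under 0.05, against 12.4% of all genes. DESeq2 on the compared groups alone called 1 of them, Slc1a2 (adjusted p = 0.0299), where it called 1.51% of all genes. DESeq2 over the 15 libraries and limma voom called 0 of the 10, where they called 1.28% and 2.11% of all genes. The log2 difference between AAV8-p21 and AAV8-null was 0.57 for Nkd1 (95% interval 0.17 to 0.97, adjusted p = 0.243), 0.33 for Glul (0.06 to 0.59, adjusted p = 0.32) and 0.40 for Slc1a2 (0.07 to 0.73, adjusted p = 0.32). It was 0.89 for Cyp1a2 (-0.06 to 1.84) and 0.60 for Rnf43 (-0.05 to 1.26). Estimates were higher with AAV8-p21 for 8 of the 10, with a median of 0.39 beside a median near 0 over all genes, of which 49.7% were higher. Over both stages the viruses overlapped for each of the 10, and they did not overlap for 0.592% of all genes. Summed markers of cell types stood apart by virus in part of the same libraries. Summed levels of the 5 cholangiocyte markers were 36.0 to 53.3 CPM with AAV8-p21 and 18.0 to 26.8 CPM with AAV8-null at 8 dpc, those of the 6 stellate cell markers 172.5 to 242 and 100.5 to 163 CPM. At 16 dpc the cholangiocyte sums were 19.6 to 43.0 and 8.41 to 17.3 CPM, while the stellate cell sums overlapped, at 215.5 to 256 and 200 to 285 CPM. The hepatocyte sums were 103700 to 127600 CPM with AAV8-p21 and 71360 to 90810 CPM with AAV8-null at 8 dpc. At 16 dpc they overlapped, at 266100 to 306800 and 306700 to 433800 CPM. None of these markers passed the test over both stages, and their part in the differences was not tested.

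Whether the stage effect differed between the viruses was tested by the interaction, which 0 of the 10 and 0 of all 12172 genes (0% of those tested) passed with edgeR. Cyp2e1 alone of the 10 had an unadjusted p under 0.05, with an interaction of 0.92 on the log2 scale (SE 0.40, adjusted p = 1 by edgeR), against 3.09% of all genes. Slc1a2, whose change from 8 to 16 dpc was estimated as larger with AAV8-p21, had an interaction of 0.50 (SE 0.311, 95% interval -0.16 to 1.17), so that a difference between the viruses was not shown. DESeq2 and limma voom called 0 of the 10. Of all genes DESeq2 on the compared groups alone called 14 (0.0879%), and DESeq2 over the 15 libraries and limma voom called 0.

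Other genes of the pericentral zone and of the Wnt pathway were followed through lists of genes from general knowledge. Of 16 other pericentral genes, 0 passed higher and 3 lower at 16 dpc against NP in AAV8-null livers. These were Slco1b2, a bile acid and drug uptake carrier (log2 fold change -1.69, SE 0.309, adjusted p = 0.00492), Lect2, a secreted hepatokine (-1.96, SE 0.393, adjusted p = 0.00931), and Cyp7a1, the rate-limiting enzyme of bile acid synthesis (-3.09, SE 0.783, adjusted p = 0.0295). Slco1b2 was at 617 to 1257 CPM in NP and 254 to 357 CPM in AAV8-null livers at 16 dpc. The median of the 16 was -0.29 beside -0.03 over all genes, of which 6.52% passed. With total-read scaling 9 of the 16 passed lower and 0 higher, and the median was -0.98 beside -0.70 for all genes, of which 50.5% passed. With AAV8-p21 against AAV8-null over both stages, 14 of the 16 had higher estimates, with a median of 0.46, and 0 passed the edgeR test. Cyp7a1 (2.38, SE 0.535, adjusted p = 0.11) and Lect2 (1.01, SE 0.271, adjusted p = 0.154) had the smallest p-values of the list.

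Of 12 other Wnt targets, 8 had enough reads to be tested. At 16 dpc against NP in AAV8-null livers Notum, a secreted enzyme that inactivates Wnt proteins, was lower (-1.74, SE 0.309, adjusted p = 0.00402), as was Ccnd1, which encodes cyclin D1 (-1.72, SE 0.338, adjusted p = 0.00809), whereas Myc was higher (1.42, SE 0.381, adjusted p = 0.0377), 1 of 8 higher and 2 of 8 lower. With total-read scaling 0 were higher and 4 lower, Notum and Ccnd1 among them. Of all genes 50.5% passed with that scaling and 6.52% with TMM. Notum was at 27.8 to 52.1 CPM in NP, 7.42 to 16.9 CPM in AAV8-null and 16.8 to 25.5 CPM in AAV8-p21 livers at 16 dpc. Ccnd1 was the 1 gene of all these lists that passed between the viruses over both stages, higher with AAV8-p21 by 2.47 (SE 0.243, adjusted p = 0.000232). It was at 72.6 to 116 CPM in AAV8-null and 224.5 to 417.5 CPM in AAV8-p21 livers at 8 dpc, and at 21.1 to 26.3 and 137 to 278 CPM at 16 dpc. Tcf7, a TCF/LEF factor that is itself a target, was next in that list (0.80, SE 0.194, adjusted p = 0.14).

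The parts of the pathway above these targets moved in both directions. Of 9 genes for Wnt ligands, R-spondins and their secretion, 7 were tested and 0 passed at 16 dpc against NP in AAV8-null livers, where 6.52% of all genes passed. The smallest p-values were those of the ligands Wnt5a (1.96, SE 0.638, adjusted p = 0.0866) and Wnt4 (-1.04, SE 0.56, adjusted p = 0.308). With total-read scaling 0 of the 7 were higher and 4 lower (Wnt2, Wnt4, Wls and Porcn), with a median of -1.11 beside -0.70 for all genes, of which 50.5% passed. Between the viruses over both stages 0 of the 7 passed, and Wnt4 (1.01, SE 0.397, adjusted p = 0.324) and Wls, which carries Wnt proteins to the cell surface (0.43, SE 0.177, adjusted p = 0.339), had the smallest p-values. Wnt2, a ligand of the liver endothelium, was at 3.67 to 5.80 CPM in NP and 1.92 to 1.97 CPM in AAV8-null livers at 8 dpc, and rose from 8 to 16 dpc over both viruses (0.82, SE 0.197, adjusted p = 0.0119). With total-read scaling Wnt2 did not pass, where 69.1% of all genes did. Of the 8 endothelial markers, 4 of which were called higher in that comparison, 6 had lower estimates with total-read scaling and 1 was called lower (Cdh5). Rspo3, the R-spondin of the central vein, was between 2.26 and 5.46 CPM. From 8 to 16 dpc in AAV8-p21 livers it did not pass with TMM and was called lower with total-read scaling (-0.66). The median of all genes there was -0.59, and 35.5% of them passed. Of the 9 receptor genes, Lgr4, a receptor for R-spondins like Lgr5 (1.04, SE 0.259, adjusted p = 0.0272), and the co-receptor Lrp5 (1.19, SE 0.302, adjusted p = 0.0301) were higher at 16 dpc than in NP livers and 0 were lower. With total-read scaling neither passed, and 2 other receptors (Fzd1 and Fzd4) were lower, beside 50.5% of all genes that passed. Of the 14 intracellular genes, the β-catenin cofactor Bcl9 was higher (1.25, SE 0.287, adjusted p = 0.0186) and its paralog Bcl9l lower (-1.11, SE 0.257, adjusted p = 0.0188). With total-read scaling 0 of these 14 were higher and 6 lower, beside 50.5% of all genes that passed. Of 8 secreted antagonists, Dkk3 alone had enough reads to be tested, and it did not pass (0.10, SE 0.498). Between the viruses over both stages 0 of the receptor, intracellular and antagonist genes passed. The smallest p-values were those of the co-receptors Lrp6 (-0.55, SE 0.258, adjusted p = 0.402) and Lrp5 (-0.33, SE 0.211, adjusted p = 0.537), and of Bcl9 (-0.34, SE 0.199, adjusted p = 0.509) and the kinase Gsk3b (-0.27, SE 0.16, adjusted p = 0.516), while Dkk3 was at 0.02 (SE 0.368, adjusted p = 0.989).

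Genes of the opposite, periportal zone moved in both directions. At 16 dpc against NP in AAV8-null livers, 2 of 13 periportal genes passed higher and 3 lower, with a median of -0.52 beside -0.55 for the 10 genes above. With total-read scaling 2 passed higher and 8 lower, and the 2 medians were -1.24 and -1.22. Of all genes 6.52% passed with TMM and 50.5% with total-read scaling. The lower ones included the glutaminase Gls2 (-1.34, SE 0.265, adjusted p = 0.00842), and the higher ones the aldehyde dehydrogenase Aldh1b1 (1.70, SE 0.372, adjusted p = 0.0141). Between the viruses over both stages 0 of the 13 passed, with a median of 0.12. The smallest p-values there were those of Cdh1, which encodes E-cadherin (1.37, SE 0.481, adjusted p = 0.268), and Hsd17b13, a lipid droplet protein (-0.45, SE 0.237, adjusted p = 0.454).

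**Figure D4:**
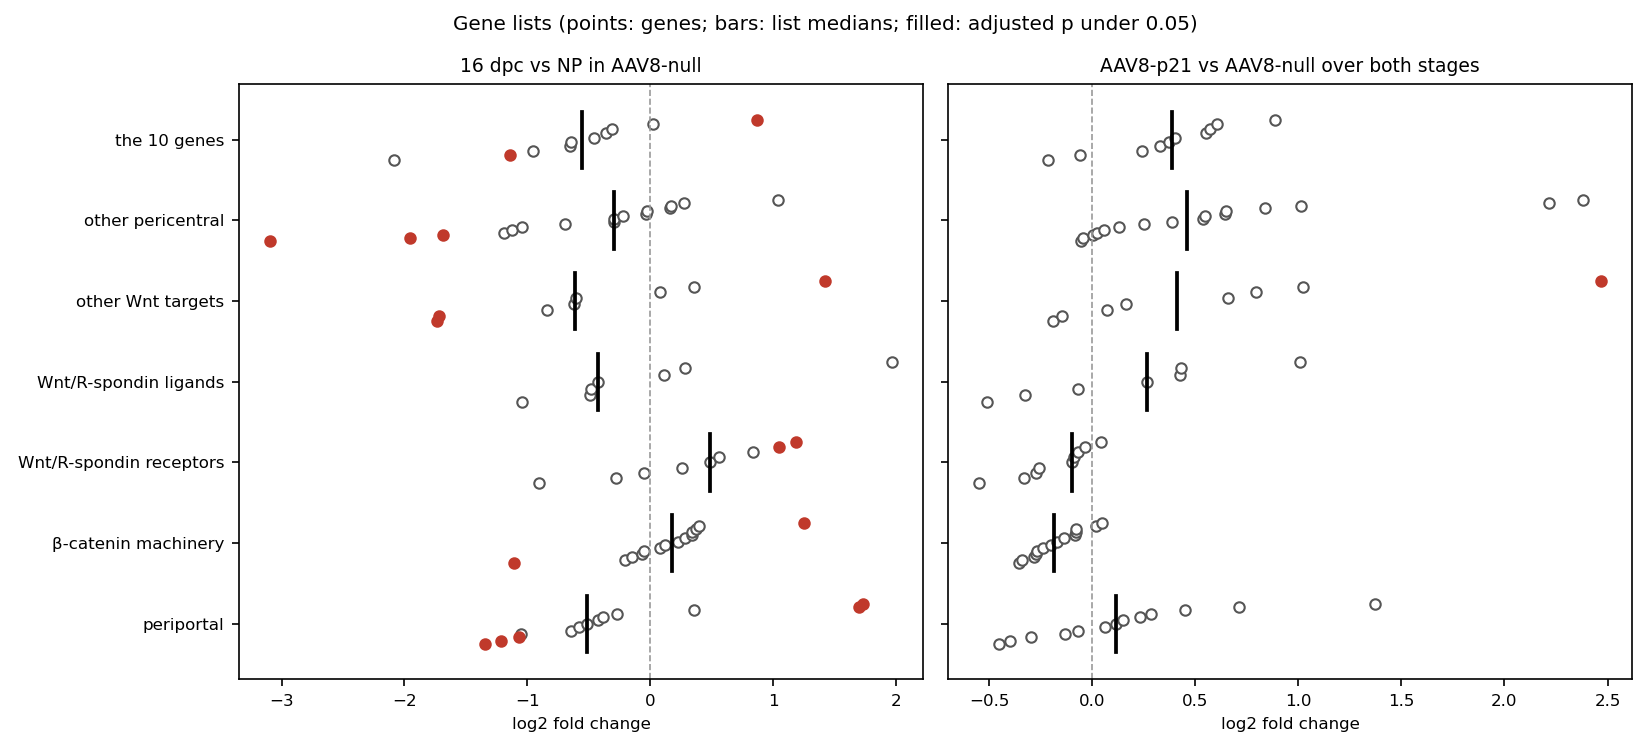
Log2 fold changes of the 10 genes and of 6 lists in 2 comparisons, with 1 point per tested gene, list medians as vertical bars and calls filled in red. In the left panel (16 dpc against NP) calls lie on both sides of 0; in the right panel (AAV8-p21 against AAV8-null) Ccnd1 at 2.47 is the one filled point.

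Markers of other cell types were read in the same libraries. Between the viruses over both stages 0 of the tested markers passed the edgeR test. The smallest p-value was that of Spp1, a cholangiocyte marker that encodes osteopontin (1.21, SE 0.241, adjusted p = 0.0644), followed in its list by Epcam (1.48, SE 0.452, adjusted p = 0.211). The other lists were led by Reln (0.65) and Lrat (0.63) of the stellate cells, Marco (0.91) and Vsig4 (0.22) of the Kupffer cells, Lyve1 (-0.96) and Clec4g (0.26) of the endothelium, Hnf4a (-0.44) and Serpina1e (0.55) of hepatocytes, and Alas2 (0.38) and Hbb-bs (0.23) of erythroid cells, with adjusted p of 0.257 or above. At 16 dpc against NP in AAV8-null livers, Alb (2.01), Serpina1e (3.5) and Alas2 (1.5) were called higher with either scaling, Hbb-bs (1.05) with TMM alone, and Lrat (-1.41) lower with either. The hepatocyte markers did not all rise, as Ttr was called lower with total-read scaling (-2.1) and with DESeq2 size factors (-1.4). Spp1 (-0.996), Epcam (-1.65), Cd5l (-0.58), Marco (0.44), Clec4g (0.23), Cdh5 (-0.26) and Dcn (0.45) did not pass with TMM, and Spp1, Epcam, Cd5l and Cdh5 passed lower with total-read scaling. That scaling called 50.5% of all genes. The part of these cell types in the values of the 10 genes was not tested.

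Across the 15 livers the likeness between the 10 genes differed from pair to pair. The pairs with the highest Pearson correlations of log2 CPM were Cyp1a2 with Rhbg (r = 0.714, and 0.662 after subtracting the group means), Tbx3 with Rnf43 (0.711 and 0.697) and Glul with Nkd1 (0.664 and 0.505), out of 45 pairs. After subtracting the group means the highest pair was Glul with Lgr5 (0.74, and 0.487 before). These values describe libraries that share the same scaling and the same groups. Among all tested genes, Gusb, Phldb1 and Gpx3 were most like Slc1a2 over the 15 livers (r = 0.958, 0.946 and 0.944), Fggy, Nat8f1 and Cyp2f2 most like Cyp1a2 (0.952, 0.934 and 0.929), and Hlf, N4bp2l1 and Nr1i3 most like Cyp2e1 (0.898, 0.859 and 0.853). Arhgap29, Gm11437 and Slc19a2 were most like Axin2 (0.963, 0.875 and 0.858), Car8, Eef2k and Hpgd most like Lgr5 (0.889, 0.888 and 0.886), and Ssbp4, P2ry6 and Umps most like Rhbg (0.904, 0.890 and 0.886). Zfc3h1, Tpmt and Ccdc28b were closest to Tbx3 (0.890, 0.860 and 0.846), Tmem200b, Nckipsd and Sult2a2 to Nkd1 (0.836, 0.828 and 0.791), Anks4b, Mphosph9 and Phldb2 to Rnf43 (0.823, 0.815 and 0.804), and Gpsm1, Elk3 and Dnase1l3 to Glul (0.822, 0.793 and 0.770).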

How the data were processed

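RNA-seq libraries (TruSeq Stranded mRNA) of whole liver from 15 mice in 5 groups were analysed. Per the labels and the methods of the study, the authors used cutadapt 1.14 for trimming, HISAT2 2.1.0 for alignment to mm10 and HTSeq 0.12.4 for counting reads that mapped once, over protein-coding genes; the deposited values are raw counts. The strand setting of the counting is not given in the sources used here, so reads of Glul, Axin2, Tbx3 and Slc1a2 cannot be told apart from those of genes that overlap their exons on the opposite strand.

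Libraries were grouped by the labels. The numbers of the AAV8-p21 16 dpc columns do not all match the labels, so these 3 libraries carry no replicate number and are called columns 1 to 3, by their order in the table. The main test was edgeR 4.0.16 (R 4.3.3; quasi-likelihood, TMM, filterByExpr with a minimum count of 10, which kept 12172 of 21702 genes), with 1 model of 5 groups and 10 residual degrees of freedom. A gene was called at an adjusted p (Benjamini-Hochberg over all tested genes) under 0.05. The labels do not say more of the replicates than that they are separate samples, so p-values measure the spread between them. Log2 CPM used a pseudocount of 0.5, and 95% intervals come from the same fit. The fit was also run on simulated counts, and the outcome is not given here. Those counts did not include the higher albumin share at 16 dpc. Alternatives were DESeq2 1.42.0, limma 3.58.1 (voom with sample weights), other filters and scalings, the compared groups alone and each library left out. Positions come from GENCODE M21, of the same build (GRCm38).

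The 10 genes, the lists and the tests were chosen with earlier results of these data known. Named genes were the 10 genes, Cdkn1a, the 2 genes of each list with the smallest p at 16 dpc against NP and between the viruses, and the 3 genes most correlated with each of the 10. Myc, Wnt2, Rspo3, Ttr, Cyp7a1 at 16 dpc, Fzd1, Fzd4, Porcn, and Cdh5, Dcn and Colec11 from 8 to 16 dpc were named after their values were seen. Other lists gave these counts at 16 dpc against NP in AAV8-null livers: 0 of 6 Kupffer cell, 0 of 5 cholangiocyte and 0 of 8 endothelial markers were called, 1 of 6 stellate cell markers was lower (Lrat), 2 of 3 tested erythroid markers were higher (Alas2 and Hbb-bs), and of 6 hepatocyte markers 4 were higher and 1 lower. With total-read scaling 4 Kupffer cell, 2 cholangiocyte, 4 endothelial and 2 stellate cell markers were lower, 1 erythroid marker was higher, and the hepatocyte counts were the same. Of all genes 6.52% were called with TMM and 50.5% with total-read scaling.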

Additional observations from a re-analysis of the deposited data

How the results depend on the processing

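At 16 dpc against NP in AAV8-null livers, where 2 of the 10 genes were called, 4 were called with DESeq2 over the 15 libraries, 7 with total-read scaling, 3 with no filter on low counts, DESeq2 on the compared groups or limma voom, 1 where a log2 fold change beyond 1 was also required, 0 with edgeR on the compared groups alone, and 0 to 1 when a library was left out; of all genes these settings called 7.51%, 50.5%, 4.74%, 6.26%, 13.2%, 598 genes, 3.49%, and 3.01% to 5.91%. For 8 dpc against NP the count went from 0 to 1 with DESeq2 over the 15 libraries and 2 with limma voom. From 8 to 16 dpc it went from 1 to 2 with limma voom (14.0% of all genes) and 7 with total-read scaling (53.5%) in AAV8-null livers, and from 1 to 2 with DESeq2 on the compared groups (5.60%) and with limma voom (14.9%) and 3 with total-read scaling (35.5%) in AAV8-p21 livers. Over both viruses it went from 2 to 8 with total-read scaling (69.1%), 3 with DESeq2 over the 15 libraries (15.4%), on the compared groups (15.7%) and with limma voom (28.4%), and 1 to 2 when a library was left out (10.1% to 19.3%). Leaving out a library moved the calls among all genes from 836 to between 258 (AAV8-null 8 dpc replicate 2) and 1279 (replicate 3) in AAV8-null livers from 8 to 16 dpc, from 404 to between 159 (AAV8-p21 8 dpc replicate 1) and 464 in AAV8-p21 livers, from 794 to 373 at 16 dpc against NP (NP replicate 2), and from 16 to between 5 and 52 (AAV8-p21 16 dpc column 3) between the viruses over both stages. Between the viruses over both stages it went from 0 to 1 with DESeq2 on the compared groups. Scaling by total reads, chosen after seeing the data, moved the median of all genes at 16 dpc against NP from -0.03 to -0.70. The causes of the differences between settings were not tested. The block on replicate number, possible for the 12 numbered libraries, gave 0 calls at 16 dpc against NP (5.44% of all genes), where the same libraries without it gave 3 (6.12%; adjusted p with the block 0.0505 for Cyp2e1 and 0.0558 for Slc1a2), and changed no other count of calls among the 4 comparisons between numbered groups. Same-numbered libraries did not deviate together (mean r 0.0059 over 18 pairs, and -0.007 for different numbers), so the numbers were not taken as pairs. Of 90 values (10 genes in 9 comparisons), 26 changed sign under some alternative; 0 of these were called with TMM. Among values given above these were Glul from 8 to 16 dpc, -0.56 in AAV8-null livers and -0.50 over both viruses with total-read scaling, and Nkd1 from 8 to 16 dpc in AAV8-null livers, which lay between -0.172 and 0.147 when a library was left out. Slc1a2 kept its call from 8 to 16 dpc in all alternatives run. For Lgr5, Axin2 and Nkd1, reads per library (5 to 249) limit what can be detected.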
